A study of Mus musculus with 6 samples.

Results

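Heat shock proteins and their partners are chaperones that bind unfolded or newly made proteins. The 9 genes described here were chosen by symbol as widely studied members of the heat shock and chaperone families: Hspa8, Hspa5, Hspa1a, Hspa1b, Hsp90aa1, Hsp90ab1, Dnaja1, Dnajb1 and Hspb1, which are 9 of the 18560 genes in the count table. They were measured by droplet single-cell RNA sequencing in cells of the mouse olfactory bulb, the relay of the brain that receives the axons of the nose. All mice were C57BL/6NJ and 14 weeks old, and each library pooled 3 mice, males in replicate 1 and females in replicate 2 of every group. Which trained library is which replicate follows the library field of the annotation, against the prefixes of the cell names. The 3 groups of 2 libraries were control mice without manipulation by the labels, mice with naris occlusion for 6 weeks, in which a plug blocks odor input, and mice trained for 6 weeks while water-deprived to discriminate odors for a water reward. The study's text also describes the open side of occluded mice as a control, so that shared mice between control and naris occluded libraries cannot be told apart from separate ones here. Tissue was digested with papain at 37 °C for 20 min in every group before the cells were cooled.

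The HSP70 proteins bind short hydrophobic stretches of unfolded proteins in a cycle driven by ATP. Hspa8 encodes the constitutive cytosolic HSP70, Hspa5 the HSP70 of the endoplasmic reticulum, known as BiP, and Hspa1a and Hspa1b the stress-inducible HSP70. Proteins with a J domain, here Dnaja1 and Dnajb1, hand clients to HSP70 and start its ATPase. HSP90 proteins, here the inducible Hsp90aa1 and the constitutive Hsp90ab1, mature kinases and steroid receptors. Hspb1 encodes the small heat shock protein HSP27, which holds unfolded proteins without ATP. Heat shock factor 1 binds repeats of the letters GAA and TTC ahead of the inducible cytosolic genes, and the unfolded protein response acts on Hspa5 through its own elements. Enzymatic digestion of warm tissue is a known trigger of immediate early genes and of the inducible heat shock genes.

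The 6 libraries held 51426 annotated cells, between 6705 and 10570 each, with between 11841160 and 17065083 UMIs, the unique molecular identifiers that count captured molecules. The first trained library stood apart, with a median of 1028 UMIs per cell against medians from 1344.5 to 1723.5 in the other 5 libraries, and a median mitochondrial share of 14.4% against 9.25% to 11.6%. Of 50982 barcode sequences, 1533 occurred in more than 1 library. All 6 libraries labelled olfactory bulb held olfactory sensory neurons from the adjoining epithelium. The listed markers of 11 populations were highest in their own population for 9 of them, and dopaminergic periglomerular cells and olfactory ensheathing cells were the exceptions. Levels below are UMIs of the gene summed over the cells of a cluster in a library, per 1000000 UMIs of those cells (CPM), and they are a mean ± SD over 6 libraries unless stated. The chemistry counts 3′ ends, so levels are compared between clusters and libraries for 1 gene and not between genes.

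The promoters are shown because 4 of the cytosolic genes hold 1 form of the heat shock element while Hspa5 holds another element, and because those of Hspa1a and Hspa1b are near copies. Each line gives the 250 bases before the RefSeq transcription start in GRCm38.p6, 5′ to 3′ on the gene's strand. Capitals mark the heat shock element form GAANNTTC or, in Hspa5 alone, both ends of the endoplasmic reticulum stress element, CCAAT and CCACG with 9 bases between them. The Hspa1a window is chr17:34972157-34972406 and the Hspa1b window chr17:34959239-34959488, both on the minus strand. On the plus strand, the Hspb1 window is chr5:135887669-135887918, the Dnaja1 window at its most upstream start chr4:40722218-40722467, and the Hspa5 window chr2:34771840-34772089.
Hspa1a: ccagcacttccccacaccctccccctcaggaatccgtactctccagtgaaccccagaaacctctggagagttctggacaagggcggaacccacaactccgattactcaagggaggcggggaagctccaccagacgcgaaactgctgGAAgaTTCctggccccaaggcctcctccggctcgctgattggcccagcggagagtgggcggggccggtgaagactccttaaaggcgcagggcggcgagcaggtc
Hspa1b: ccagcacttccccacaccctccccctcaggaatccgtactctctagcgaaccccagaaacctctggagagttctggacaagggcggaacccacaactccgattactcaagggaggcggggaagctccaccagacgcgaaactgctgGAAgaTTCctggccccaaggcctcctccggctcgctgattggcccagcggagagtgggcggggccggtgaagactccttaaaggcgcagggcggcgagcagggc
Hspb1: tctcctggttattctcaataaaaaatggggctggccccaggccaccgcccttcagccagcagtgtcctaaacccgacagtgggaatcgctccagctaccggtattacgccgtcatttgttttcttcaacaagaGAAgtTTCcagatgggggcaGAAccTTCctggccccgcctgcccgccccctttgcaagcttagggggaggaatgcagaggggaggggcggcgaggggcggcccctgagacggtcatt
Dnaja1: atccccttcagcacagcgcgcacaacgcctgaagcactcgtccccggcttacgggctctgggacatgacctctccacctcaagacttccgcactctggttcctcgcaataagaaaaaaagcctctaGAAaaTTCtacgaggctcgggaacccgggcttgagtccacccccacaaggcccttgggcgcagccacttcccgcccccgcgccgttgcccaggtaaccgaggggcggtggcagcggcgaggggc
Hspa5: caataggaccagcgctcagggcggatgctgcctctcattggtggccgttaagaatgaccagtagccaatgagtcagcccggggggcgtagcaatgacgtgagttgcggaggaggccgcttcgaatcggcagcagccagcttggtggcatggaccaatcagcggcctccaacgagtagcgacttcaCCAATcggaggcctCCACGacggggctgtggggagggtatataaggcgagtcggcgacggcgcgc

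RefSeq promoters were at hand for 6 of the 9 genes, and Hspa8, Hsp90aa1 and Hsp90ab1 are named only. The form GAANNTTC stood 104 to 97 bases before the start in Hspa1a and in Hspa1b, at 117 to 110 and at 97 to 90 in Hspb1, and at 124 to 117 in Dnaja1, at its most upstream start and not at its other 2 starts. It read the same on both strands, as did TTCNNGAA, the other form searched, which was in none of these windows. Among 32851 mouse promoter windows of the same length, 6.694% held GAANNTTC and 12.84% held either form. The element of Hspa5 lay 65 to 47 bases before the start and was present on either strand in 0.1126% of windows. Neither was in the windows at the 2 start sites of Dnajb1. A match is a string of letters and no measure of binding.

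Hspa1a and Hspa1b lie side by side on chromosome 17, at 34969359 to 34972156 and 34956429 to 34959238. Counted from 1 at the 5′ end, their promoter windows differed at 3 of 250 bases, C44T, T47C and T249G, with the Hspa1a base before the position and the Hspa1b base after it. Their coding sequences were identical at 1918 of 1929 aligned positions (99.43%), and a read that covers none of the differing positions cannot be assigned to one of them. Past the stop codon, nearer to the 3′ ends that were sequenced, 412 of 862 aligned positions were identical (47.8%). The counts do not show how many UMIs came from either stretch, so how they split between the copies is uncertain. Hspa1b had few UMIs in any cluster, with a highest mean of 10.9 ± 15.6 CPM in Mural2, and no cluster order is given for it.

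Cluster names are those of the deposited annotation, and the study's own text numbers the clusters of ensheathing, microglial, mesenchymal and astrocytic cells differently. OEC5 here is the cluster of 883 cells, MicroG1 that of 790 and Mes2 that of 230. Across the 40 clusters, 18 of neurons and 22 of other cells, the 9 genes fell into different patterns. Hspa8 and both HSP90 genes had UMIs in every cluster, with higher medians over the neuronal clusters. Markers of olfactory sensory neurons also had UMIs in all other populations, at mean summed levels of 437 to 1586 CPM against 39591 CPM in n01, so a low level alone cannot be read as expression. Hspb1 was highest in endothelial, mural and mesenchymal clusters. Hspa1a and Dnajb1 were highest in an ensheathing cell cluster and in macrophages. Hspa5 was highest in a group of interneurons and in mitral and tufted cells. Red blood cells had the lowest mean for 6 of the 9 genes. CPM is a share of all UMIs of a cluster, so other abundant RNAs can lower it, and their part here was not tested. These are levels of clusters built on the same cells, and they are given as a description without a test.

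**Figure D1:**
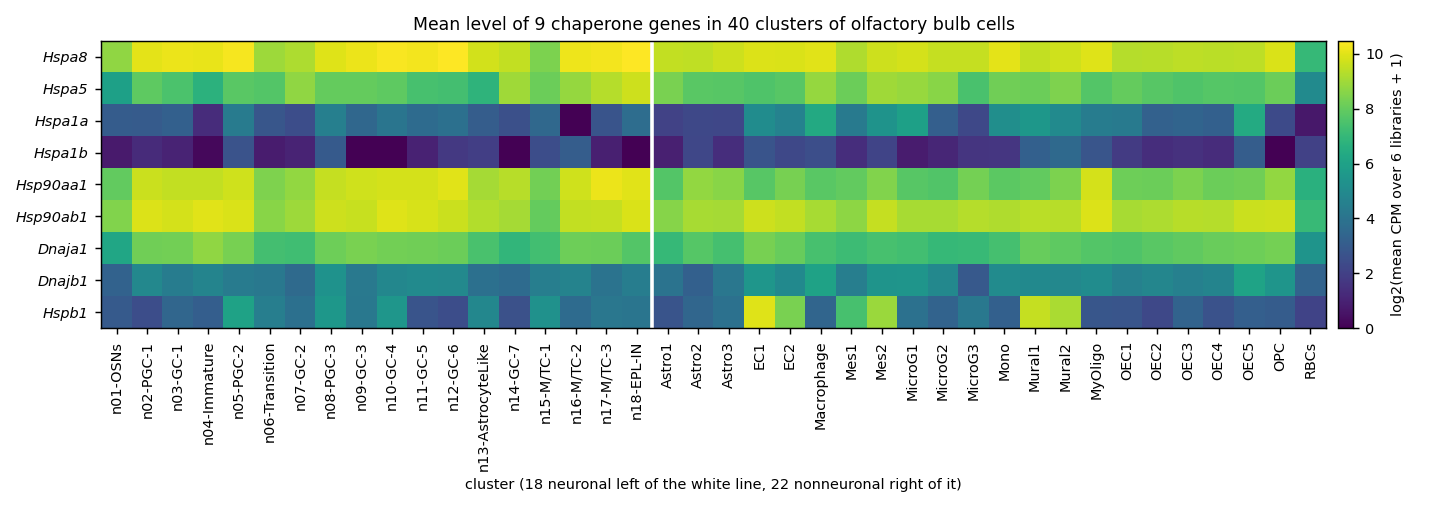
Mean level of the 9 genes (rows) in 18 neuronal and 22 nonneuronal clusters (columns), as log2 of the mean CPM over 6 libraries plus 1, shown by color. Hspb1 is bright in EC1, EC2, Mural1, Mural2, Mes1 and Mes2, while Hspa8 is bright in nearly every column except RBCs.

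Among the HSP70 genes, Hspa8 had a median of 1125 CPM over the neuronal clusters and 749 over the nonneuronal clusters. It was highest in n18-EPL-IN, interneurons of the external plexiform layer, with 1425 ± 251 CPM, and in n12-GC-6, a granule cell cluster, with 1406 ± 466 CPM. These neighbors in the order overlapped. It was lowest in red blood cells (RBCs), with 128 ± 54.3 CPM.

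Hspa5 had nearly the same median in neuronal (236 CPM) and nonneuronal clusters (239 CPM) but a wide range within both. It reached 810 ± 270 CPM in n18-EPL-IN, 642 ± 142 CPM in the mitral and tufted cluster n17-M/TC-3 and 505 ± 271 CPM in the mesenchymal cluster Mes2, and each differed from its neighbor in the order by less than their spread. Immature neurons (n04) had 107 ± 20.8 CPM and olfactory sensory neurons (n01) 61.2 ± 31.2 CPM. Within the control libraries alone, n17-M/TC-3 was the highest with 718 CPM and n18-EPL-IN followed with 651 CPM, and n18-EPL-IN had 161 cells in all.

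Hspa1a was rare. The cluster with the highest mean was the ensheathing cell cluster OEC5, with 84.7 ± 30.2 CPM. Macrophages followed with 80.7 ± 45.3 CPM and the microglial cluster MicroG1 with 60.7 ± 46.4 CPM, which did not differ beyond their spread. The median was 7.87 CPM over neuronal and 18.5 CPM over nonneuronal clusters, and no neuronal cluster had a mean above 22.2 CPM. In n16-M/TC-2, 0 of 116 cells had a UMI of Hspa1a, which allows a share of cells with a UMI of up to 2.59% for counting error only and sets no limit on cells that express the gene. Hspa1b had a mean of 7.54 CPM in this cluster, and how UMIs split between the copies is uncertain.

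The HSP90 genes had higher medians over neuronal than over nonneuronal clusters, to different degrees, and the ranges of the cluster means overlapped. Hsp90aa1 had a median of 773 CPM over neuronal clusters against 282 CPM over nonneuronal clusters, and it was highest in n17-M/TC-3, with 1148 ± 150 CPM, a level within the spread of the 1033 ± 139 CPM in n18-EPL-IN. Outside neurons it was high in myelinating oligodendrocytes (MyOligo), with 899 ± 139 CPM. Hsp90ab1 had medians of 781 and 620 CPM, with 1021 ± 71.9 CPM in immature neurons and 960 ± 91.6 CPM in MyOligo. In the control libraries alone n18-EPL-IN led for Hsp90ab1, with 1139 CPM, so the order of these neighbors is not firm.

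The J-domain genes had different patterns from each other. Dnaja1 was highest in immature neurons, with 429 ± 25.4 CPM, and the next cluster, n09-GC-3, had 334 ± 144 CPM and varied widely between libraries. Its nonneuronal maximum was 322 ± 107 CPM in the endothelial cluster EC1. Dnajb1 was low everywhere, with medians of 20.2 CPM over neuronal and 28.9 CPM over nonneuronal clusters. Its highest means were 67.5 ± 34.8 CPM in OEC5 and 64.1 ± 49.6 CPM in macrophages, the same clusters that led for Hspa1a. The macrophage mean rested on the second control library, which had 162 CPM where the others had 25.9 to 64.0 CPM.

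Hspb1, the small heat shock gene, had 1014 ± 337 CPM in EC1, 755 ± 277 CPM in Mural1, 562 ± 257 CPM in Mural2 and 474 ± 172 CPM in Mes2. The lowest library of EC1, at 737 CPM, stood above every library of every neuronal cluster. The highest neuronal mean was 64.8 CPM, in the dopaminergic cluster n05-PGC-2, and the median over nonneuronal clusters was 9.39 CPM. EC1 remained the highest cluster in the control libraries alone, with 863 CPM, and in cells with at least 1000 UMIs, with 1033 CPM.

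**Figure D2:**
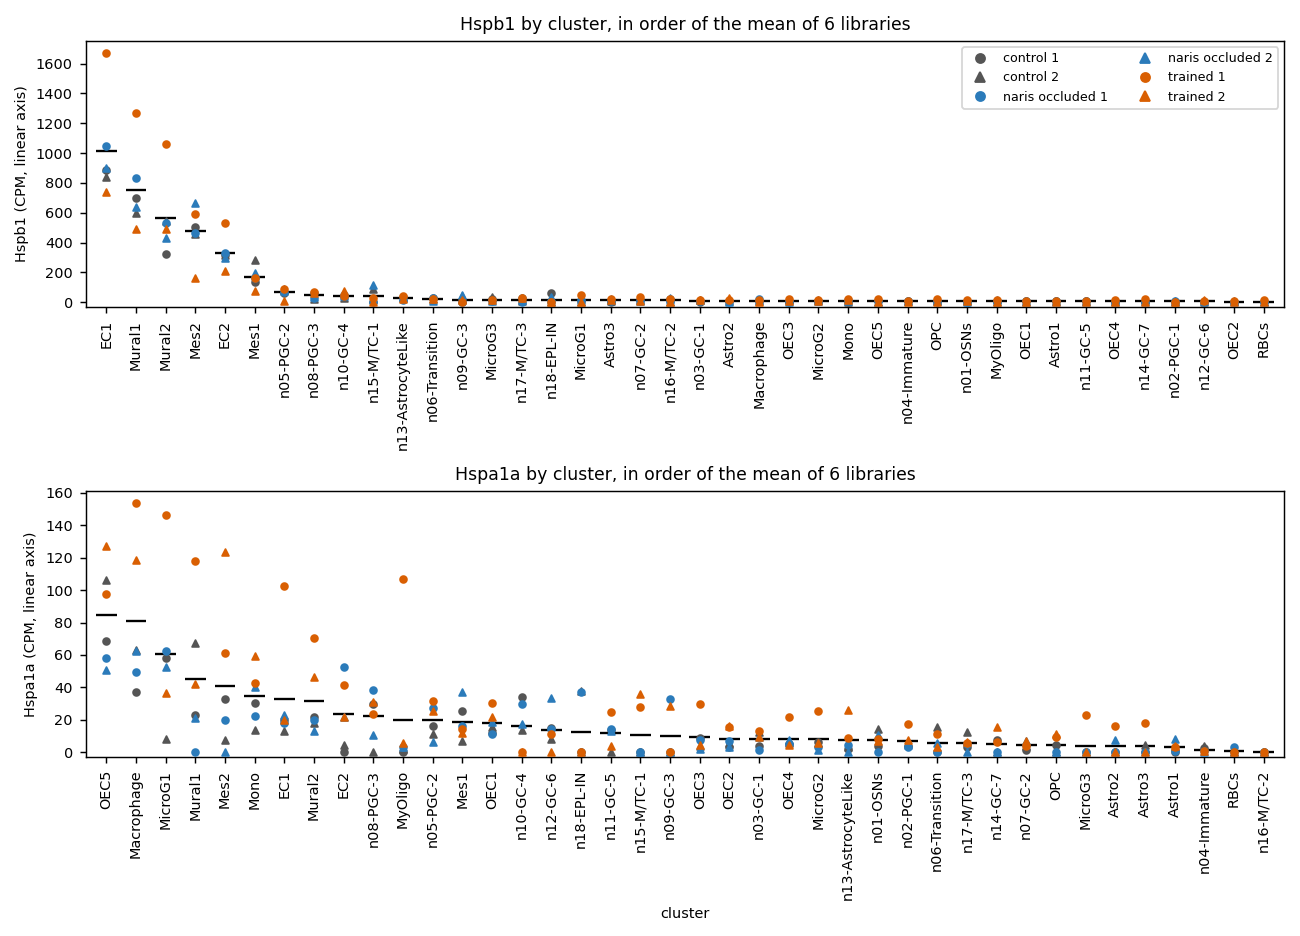
CPM of Hspb1 (top) and Hspa1a (bottom) in the 40 clusters, each ordered by its mean (black bar), with 1 point per library, circles for replicate 1 (males) and triangles for replicate 2 (females). The mean of Hspb1 falls from 1014 CPM in EC1 to at most 64.8 CPM in a neuronal cluster, and the first trained library (orange circle) is the highest for Hspa1a in MyOligo, at 107 CPM.

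The share of cells with at least 1 UMI gave the same split for Hspb1. It was 67.9% of 2524 EC1 cells (median 1621 UMIs per cell) and 92.4% of 158 Mural1 cells (median 3508). In olfactory ensheathing cells the share was 1.13% of 11551 cells (median 1753), and 0.75% in olfactory sensory neurons (median 808.5). After thinning each cell to 500 UMIs, the shares were 35.8%, 32.9%, 0.398% and 0.417%.

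For Hspa1a, 8.83% of 883 OEC5 cells (median 2352 UMIs), 7.69% of 572 macrophages (median 1629.5) and 6.84% of 790 MicroG1 cells (median 2336) had a UMI, against 0.230% of 3910 immature neurons (median 1668). Thinned shares were 3.06%, 3.15%, 2.91% and 0.153%. The molecules were concentrated in few cells. In OEC5, 62.4% of all Hspa1a UMIs came from cells with 3 or more, and 1 cell held 11. In MicroG1 that share was 52.7% and in macrophages 45.7%.

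The genes whose cluster pattern was most like each member were found by Pearson's r of mean log2(CPM + 1) over the 40 clusters, among 7137 genes with at least 20 CPM on average. The clusters share libraries and depth, so r is a description. For Hspa1a the nearest genes were Ier2 (r = 0.82), Ier3 (0.80) and Fosb (0.79), all 3 on the list of immediate early genes known to rise during enzymatic dissociation. For Hspa5 they were Hsp90b1 (0.96), the HSP90 of the endoplasmic reticulum, Calr (0.95), the lumenal lectin chaperone calreticulin, and Tmed9 (0.91), a cargo receptor of vesicles. Dnaja1 was most like Fkbp4 (0.93), an HSP90 cochaperone, followed by Ppp2r2d (0.93) and Rab11b (0.92). Hspb1 was most like Tm4sf1 (0.91), a membrane protein of endothelium, Foxc1 (0.87) and Cxcl12 (0.85). The nearest genes were Atp6v1f, Mrpl12 and Tspyl1 (0.91 each) for Hspa8, Ywhag, Snrpn and Apbb1 (0.90, 0.90 and 0.89) for Hsp90aa1, and Nhp2l1, Pafah1b1 and Srp54b (0.92, 0.91 and 0.90) for Hsp90ab1. Weaker likeness was seen for Dnajb1, with Tada3 (0.80), Mrpl10 (0.79) and Mitd1 (0.79), and for the sparse Hspa1b, with Art3 (0.71), Pttg1 (0.69) and Crip1 (0.68).

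Among the members, Hsp90ab1 followed Hspa8 (r = 0.89) and Dnaja1 (0.87) over the 40 clusters, and Hspa1a followed Dnajb1 (0.72). Hspb1 had r between −0.16 and 0.44 with every other member, and Hsp90aa1 had −0.22 with Hspa1a.

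The comparisons between conditions used UMIs summed per library in 14 populations and edgeR's quasi-likelihood test over all genes of a population. Counts over members are counts of gene and population pairs, and the 14 populations share the same 6 libraries, so the pairs are not independent. The populations were 6 neuronal clusters, mitral and tufted cells, 6 pooled nonneuronal classes and MyOligo. The mix of clusters within pooled populations differed between libraries, and its part in the differences was not tested. Mural1 made up 39 of 166 mural cells in the first trained library and 11 of 120 in the second. Of 126 pairs of member and population, 94 passed the filter on low counts: all 14 populations for Hspa8, Hspa5, Hsp90aa1, Hsp90ab1 and Dnaja1, 10 for Dnajb1, 8 for Hspb1, 6 for Hspa1a and 0 for Hspa1b. In 5 of the 94 the filter would not have been passed without the trained libraries, namely Hspa1a in astrocytes, mural and mesenchymal cells, Dnajb1 in mural cells and Hspb1 in astrocytes. Entry through other groups also occurred, as for Hspb1 in n04, which reached the cutoff in the occluded libraries only. With 2 libraries per group, p-values measure the spread between these libraries, and an exact permutation test of 1 value could not go below 0.333.

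Naris occlusion, which asks what loss of odor input does, left no member past the threshold. None of the 94 pairs had an adjusted p under 0.05, where 0.0624% of the 101018 gene and population pairs did, and 2 had an unadjusted p under 0.05. DESeq2's Wald test also called 0. In simulated counts with log2 changes of 1 in the trained libraries, edgeR tests of 1 population recovered 16.5% to 46.5% of changed genes. A count of 0 therefore does not show that the members were unchanged. The median log2 fold change over the 94 pairs was −0.05, against 0.00 over all genes, and 31 were above 0. Occluded libraries were both above both controls in 13 pairs and both below in 18, where 19% and 15.3% of all pairs did so.

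The pair nearest to the threshold was Hspa5 in mitral and tufted cells. Its levels were 662 and 632 CPM in the control libraries, 372 and 526 CPM in the naris occluded libraries, and 654 and 649 CPM in the trained libraries. The occluded libraries were the lowest of the 6, with a log2 fold change of −0.63 ± 0.22 (SE) and an adjusted p of 0.262. Hspa5 in the periglomerular cluster n02 was also lower in both occluded libraries, at 125 and 151 CPM against 194 and 190 CPM, with an adjusted p of 0.844.

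Training went with higher mean levels of Hspa8, Hspa5 and Dnaja1 in most populations. Trained mice had enriched odor input, water deprivation, reward and learning together, and the parts of these cannot be told apart here. The 2 of 94 pairs that rose at an adjusted p under 0.05 (2.13%, where 0.0396% of all pairs rose) were Hspa5 in n02 and Hspa8 in endothelial cells. DESeq2's Wald test called neither of them, with adjusted p of 1.00 and 0.181, while it called 3 other pairs. No member fell, where 0.0158% of all pairs fell. At an unadjusted p under 0.05 there were 42 pairs. For this threshold, here and elsewhere, the share of all pairs was not taken, so such counts have no reference. The median log2 fold change was 0.41, against 0.00 over all genes, and 80 of 94 were above 0. Trained libraries were both above both controls in 51 pairs (54.3%), where 18.1% of all pairs were, and both below in 4 (4.26%), where 16.8% were. Over the 89 pairs that pass the filter without the trained libraries, a choice made after seeing the data, 2 were called, 75 were above 0, the median was 0.40 and both trained libraries exceeded both controls in 48. A fit with the replicate number, which gives the sex of the pool, as a block called more pairs, as the closing section gives.

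Hspa8 in endothelial cells had 619 and 835 CPM in the control libraries, 576 and 770 CPM in the occluded libraries, and 1874 and 1137 CPM in the trained libraries. Both trained libraries were above the other 4, which overlapped, and the first trained library was far above the second. The log2 fold change from control was 1.09 ± 0.20 (SE), with an adjusted p of 0.0307. Hspa5 in n02 had 194 and 190 CPM in control and 411 and 344 CPM in trained libraries, which were close to each other, and its log2 fold change was 0.96 ± 0.17 (SE) with an adjusted p of 0.0103.

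Over populations, Hspa8 was higher in the trained libraries in 14 of 14, with log2 fold changes from 0.07 in mitral and tufted cells to 1.09 in endothelial cells and a median of 0.61. Both trained libraries exceeded both controls in 12 of them, where 18.1% of all pairs did. In immature neurons it had 823 and 995 CPM in control and 1573 and 1317 CPM in trained libraries. In olfactory ensheathing cells, the glia that wrap the sensory axons, the values were 516 and 530 CPM against 1120 and 755 CPM, with a log2 fold change of 0.85 ± 0.15 (SE) and an adjusted p of 0.0753.

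Hspa5 was above control in 12 of 14 populations, with a median of 0.50 on the log2 scale. Both its trained libraries exceeded both controls in 8, where 18.1% of all pairs did. In the granule cell cluster n07 it had 344 and 349 CPM in control and 566 and 529 CPM in trained libraries, with an adjusted p of 0.310. In endothelial and mural cells, which had the highest log2 fold changes of Hspa8, Hspa5 had log2 fold changes of 0.06 ± 0.15 (SE) and 0.00 ± 0.21 (SE).

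Dnaja1 was above control in 13 of 14 populations, with a median of 0.46. Both its trained libraries exceeded both controls in 10, where 18.1% of all pairs did. The largest difference was in mural cells, the pericytes and smooth muscle of the vessel wall, with 156 and 227 CPM in control against 481 and 290 CPM in trained libraries (log2 fold change 1.00 ± 0.24 SE, adjusted p 0.235). In endothelial cells it was 0.86 ± 0.18 (SE), with an adjusted p of 0.0584.

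**Figure D3:**
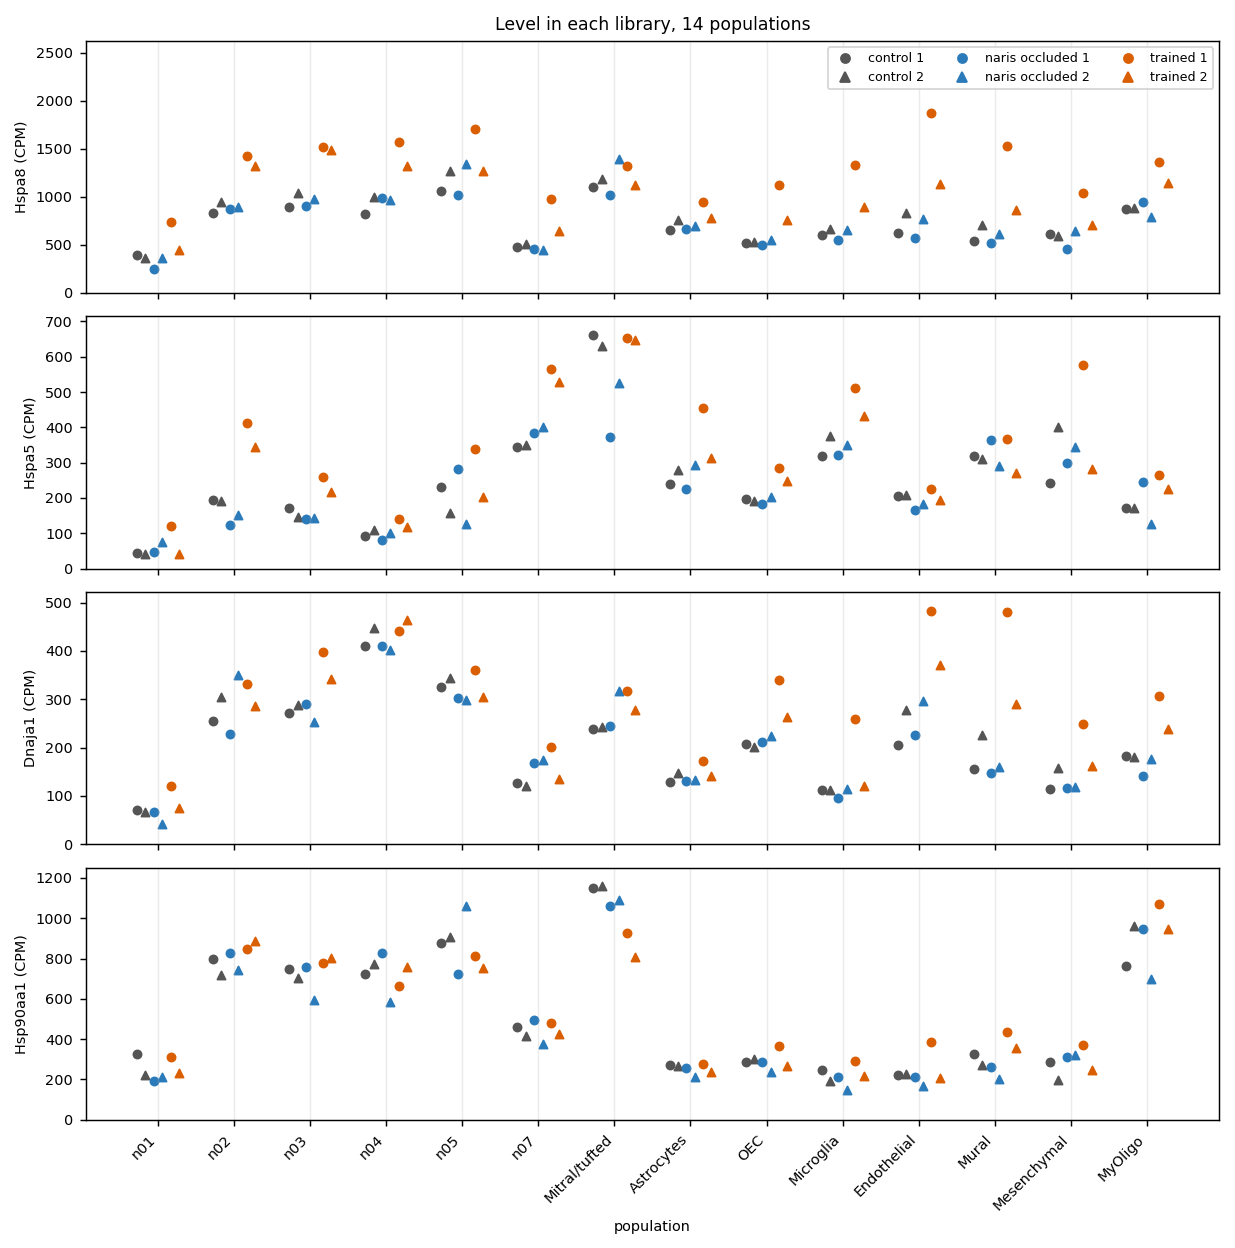
CPM of Hspa8, Hspa5, Dnaja1 and Hsp90aa1 in each of the 6 libraries (colors for groups, circles for replicate 1 and triangles for replicate 2) over 14 populations, on linear axes from 0. Trained libraries of Hspa8 lie above both controls in 12 populations, the first trained library above the second in all 14, while Hsp90aa1 in mitral and tufted cells is lower in the trained libraries, at 926 and 809 CPM against 1150 and 1159 CPM.

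Hspa1a passed the filter in 6 populations and was above control in 6 of 6, with a median log2 fold change of 1.32, but 3 of the 6 passed only with the trained libraries, where it was high. In endothelial cells it had 15.2 and 11.4 CPM in control, 25.5 and 22.6 CPM in occluded, and 90.5 and 20.1 CPM in trained libraries, with a log2 fold change of 2.17 ± 0.48 (SE) and an adjusted p of 0.0717. The first trained library alone set the size of that difference. In MyOligo, which did not pass the filter, the first trained library had 107 CPM and the other 5 had 0 to 5.48 CPM. Hspa1b in endothelial cells likewise had 22.8 CPM in the first trained library and 0.846 to 2.68 CPM in the others.

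None of the pairs of the HSP90 genes passed the test. Hsp90ab1 was above control in 12 of 14 populations with a median of 0.14, and Hsp90aa1 in 9 of 14 with a median of 0.10. In mitral and tufted cells, Hsp90aa1 was lower in both trained libraries, with a log2 fold change of −0.44. This was 1 of 2 populations, of 14, where both trained libraries were below both controls, beside 16.8% of all pairs. Dnajb1 was above control in 9 of 10 populations, with a median of 0.38, and none passed. Without mural cells, where it passed the filter only with the trained libraries, this was 8 of 9 with a median of 0.29.

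Hspb1 was above control in 5 of 8 populations, but in 0 of them did both trained libraries exceed both controls. Without astrocytes, where it passed the filter only with the trained libraries, it was above control in 4 of 7. In endothelial cells it had 754 and 733 CPM in control, 891 and 763 CPM in occluded, and 1444 and 672 CPM in trained libraries, so the trained libraries were the highest and the lowest of the 6. In mural cells the trained libraries had 1150 and 489 CPM.

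The first trained library stood apart in depth and mitochondrial share over all its cells, but in depth less so within some populations. In astrocytes its median was 900.5 UMIs per cell, against 1192.5 to 1581 in the other libraries, but 533 of its 1086 astrocytes were in Astro3, the shallowest cluster. Its medians within Astro1, Astro2 and Astro3 were 1785.5, 1833 and 679. The other libraries had 1590.5 to 2207, 1628.5 to 2281 and 632.5 to 852, so it stood apart in none of these clusters. In endothelial cells the median was 1274, against 1197 to 1525. Each count was also taken without the first trained library, leaving 1 trained library that is assumed to vary like the others. Without it, 0 of 93 pairs were called against control, where 0.0924% of all pairs were, 18 had an unadjusted p under 0.05, the median log2 fold change of the members was 0.14 and 62 of 93 were above 0. Without the second trained library, 29 of 99 pairs were called, where 0.381% of all pairs were, and the median was 0.62, but 5 of the 99 passed the filter only when the first trained library stood alone. Gene by gene, the median without the first trained library was 0.40 for Hspa8 with 13 of 14 populations above control, 0.25 for Hspa5 with 8 of 14, 0.15 for Dnaja1 with 12 of 14 and 0.66 for Hspa1a with 6 of 6. Without it the medians of Hspb1 and Hsp90aa1 turned negative, at −0.95 with 0 of 7 populations above control and −0.05 with 6 of 14. The remaining trained library had Hspa8 above both controls in 12 of 14 populations, Dnaja1 in 11 of 14 and Hspa5 in 8 of 14, but Hspb1 in 0 of 8. The first trained library was above the second in 84 of the 94 pairs. For these counts of single libraries the share of all pairs was not taken, so they have no reference. Without the first trained library, Hspa8 in endothelial cells had a log2 fold change of 0.64 (adjusted p 0.332) and Hspa5 in n02 one of 0.79 (adjusted p 0.350). In cells with at least 1000 UMIs the median of the members against control was 0.40, with 76 of 88 pairs above 0 and 3 called. With mitochondrial genes left out of the counts it was 0.40, with 80 of 93 above 0 and 4 called.

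**Figure D4:**
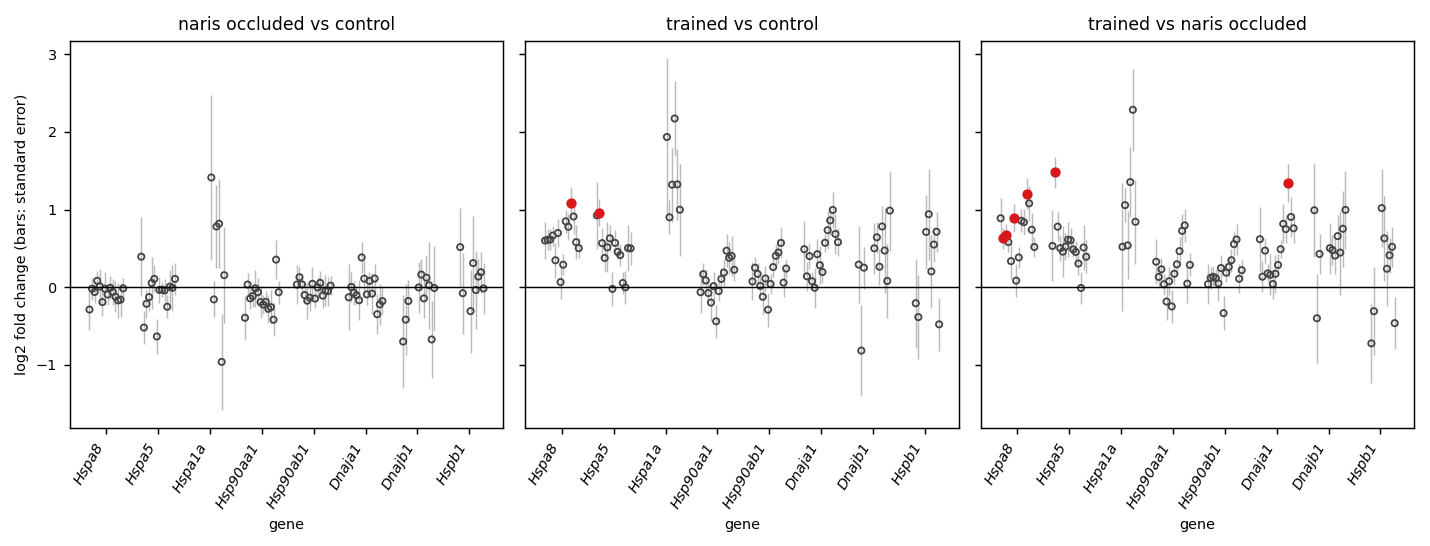
Log2 fold change with its standard error for the 8 members tested, each point 1 of up to 14 populations, in the 3 comparisons, with filled red points at an adjusted p under 0.05. Points scatter around 0 for naris occlusion, and Hspa8, Hspa5 and Dnaja1 lie mostly above 0 in both comparisons of trained mice, which share the trained libraries.

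Against naris occluded mice, 6 of 94 pairs were higher in trained mice (6.38%, where 0.11% of all pairs were) and 0 were lower, where 0.0406% of all pairs were. This comparison shares the trained libraries with the one above, so each is given by its own values. The 6 were Hspa8 in n02, n03, n07 and endothelial cells, Hspa5 in n02 and Dnaja1 in mural cells. Hspa5 in n02 had 125 and 151 CPM in occluded and 411 and 344 CPM in trained libraries, with a log2 fold change of 1.48 ± 0.20 (SE) and an adjusted p of 8.7e-05. It was the only one of the 6 that kept an adjusted p under 0.05 without the first trained library (log2 fold change 1.31, adjusted p 0.00131), and the only one that DESeq2's Wald test called (adjusted p 0.00382). Hspa8 in the granule cell cluster n03 had 907 and 980 CPM in occluded and 1522 and 1490 CPM in trained libraries, which were nearly equal, with a log2 fold change of 0.68 ± 0.14 (SE) and an adjusted p of 0.0218. Hspa8 in n07 had 456 and 448 CPM against 977 and 647 CPM (adjusted p 0.0177), and in endothelial cells its adjusted p was 0.0108. Here too, a fit with the replicate number as a block called more pairs, as the closing section gives.

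Over the 94 pairs the median log2 fold change of trained over occluded was 0.47 and 86 were above 0. Both trained libraries exceeded both occluded libraries in 54 pairs (57.4%), where 16.9% of all pairs did, and both were below in 4 (4.26%), where 19.2% were. Without the trained libraries 89 pairs pass the filter, a choice made after seeing the data. Of these, 81 were above 0, the median was 0.46, and both trained libraries exceeded both occluded libraries in 50. Dnaja1 in mural cells had 148 and 161 CPM in occluded and 481 and 290 CPM in trained libraries, with a log2 fold change of 1.34 ± 0.24 (SE) and an adjusted p of 0.0242.

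With the 18 neuronal clusters summed into 1 population, none of the 8 members tested was called between naris occluded and control (0.0688% of genes were, with 0 members at an unadjusted p under 0.05) or between trained and control mice (0.0458% of genes were, with 2 members at an unadjusted p under 0.05). DESeq2's Wald test called 0 and 1. Between trained and naris occluded mice, Hspa5 rose, and 0.718% of genes did so. Its levels in all neurons were 203 and 205 CPM in control, 190 and 168 CPM in occluded and 323 and 268 CPM in trained libraries. The trained libraries did not overlap either group, and the log2 fold change over occluded mice was 0.80 ± 0.13 (SE), with an adjusted p of 0.0142. Without the first trained library it was 0.60, with an adjusted p of 0.0678. The mix of clusters in this sum differed between libraries. The granule cell cluster n03 made up 12.1% and 17.2% of neurons in occluded libraries and 5.66% and 5.01% in trained libraries, and n13-AstrocyteLike 8.45% and 5.89% against 23.8% and 7.81%. Within the 7 neuronal populations tested one by one, Hspa5 was above occluded mice in 7, with log2 fold changes from 0.46 to 1.48, and both trained libraries exceeded both occluded libraries in 5. Hspa8 in all neurons had 803 and 889 CPM in control against 1367 and 1139 CPM in trained libraries (log2 fold change 0.56 ± 0.15 SE, adjusted p 0.340).

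Whether training or occlusion acted differently in neurons and in astrocytes, ensheathing cells, microglia or endothelial cells was tested as the difference of the effects. Of 33 pairs of member and class, 0 were called for occlusion and 0 for training, where 0.021% and 0.0191% of all pairs were. In simulated counts such a test, for immature neurons and 1 other population, recovered 4.5% to 10.5% of log2 changes of 1. The counts of 0 therefore do not show equal effects. At an unadjusted p under 0.05 there were 1 and 14. The smallest adjusted p for training was 0.282, for Dnaja1 in endothelial cells, whose effect exceeded that in neurons by 0.65 ± 0.16 (SE) on the log2 scale. Hspa5 in endothelial cells was below neurons by −0.48 ± 0.16 (SE), with an adjusted p of 0.645.

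The immediate early genes, which are known to respond to dissociation, were summed beside the members. Over 16 genes their level was highest in microglia, with 4708 to 8121 CPM over the 6 libraries, followed by endothelial cells with 2374 to 3509 CPM, and it was 506 to 688 CPM in all neurons. Both trained libraries exceeded both controls in 9 of 14 populations and were below in 1, and both occluded libraries exceeded both controls in 8 and were below in 0. For single genes, 18.1% and 19% of all pairs were so separated upward, and no such share was taken for sums. In endothelial cells, where Hspa8 and Hspa1a were highest in the first trained library, the sums were 2374 and 2550 CPM in control, 2739 and 3509 CPM in occluded and 3136 and 2879 CPM in trained libraries, so the highest value was in an occluded library. In microglia the first trained library had the lowest sum, 4708 CPM, while its Hspa8 was the highest, at 1334 CPM against 554 to 894 CPM. MicroG1 made up 105 of 866 microglia in that library and 136 of 632 in the second trained library, and the part of this mix was not tested. The part of dissociation in the results on training was not tested.

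Of the 16 immediate early genes, 1 of 148 pairs rose with training, where 0.0396% of all pairs rose. This was Klf6 in endothelial cells (log2 fold change 0.80 ± 0.15 SE, adjusted p 0.0307), and 0 fell. With occlusion, where 0.0624% of all pairs were called, Fos fell in mitral and tufted cells (log2 fold change −2.02 ± 0.48 SE, adjusted p 0.0280), and 0 rose. Between trained and occluded mice, where 0.11% of all pairs were higher, Nr4a1 was higher in n07 (log2 fold change 2.00 ± 0.35 SE, adjusted p 0.00303), and 0 were lower. In all neurons, where Hspa5 was higher in trained than in naris occluded mice, 3 of the 16 immediate early genes were higher as well, where 0.718% of all genes were, and 0 were lower. Nr4a1 had 28.3 and 24.1 CPM in control, 16.7 and 18.9 CPM in occluded and 56.4 and 34.7 CPM in trained libraries, with a log2 fold change over occluded mice of 1.46 ± 0.23 (SE) and an adjusted p of 0.00981. Egr1 (log2 fold change 1.00 ± 0.17 SE, adjusted p 0.0142) and Fosb (1.64 ± 0.31 SE, adjusted p 0.0257) were the others. These genes respond to neuronal firing as well as to dissociation, and neither their part in the result on Hspa5 nor that of the differing mix of neuronal clusters in these sums was tested. The medians over the 148 pairs were 0.28 for occlusion, 0.24 for training and −0.11 for trained over occluded mice on the log2 scale, against 0.00 over all genes for each.

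The other chaperone lists are given by their counts. In the 25 other cytosolic chaperones and cochaperones, 0 of 287 pairs were called in any of the 3 comparisons, with a median log2 fold change of 0.17 for training. The shares of all pairs are 0.0624% for occlusion and 0.0396% and 0.11% higher for training and for trained over occluded mice. In this list Hsph1, an HSP110 partner of HSP70 named here after its values were seen, had a median of 0.84 for training, with 12 of 13 populations above control and 0 called. The 18 genes of the endoplasmic reticulum and the unfolded protein response had a median of 0.09 over 231 pairs, and 1 rose, where 0.0396% of all pairs rose. That was Manf, a secreted neurotrophic factor induced by stress of the endoplasmic reticulum, in n02, with 163 and 148 CPM in control and 320 and 279 CPM in trained libraries (log2 fold change 0.92 ± 0.19 SE, adjusted p 0.0340). It was in the same cluster as the rise of Hspa5. Between trained and occluded mice, 4 of 231 pairs rose, where 0.11% of all pairs did, Manf in n02 and n03 and Xbp1, a transcription factor of the unfolded protein response, in n03 and n07. In all neurons 2 of 18 genes of this list were higher in trained than in occluded mice, where 0.718% of all genes were, in a sum whose mix of clusters differed between libraries. They were Xbp1 (log2 fold change 0.84 ± 0.13 SE, adjusted p 0.0104) and Sdf2l1, a partner of BiP in the endoplasmic reticulum (1.03 ± 0.20 SE, adjusted p 0.0297).

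The 5 mitochondrial chaperones (median 0.11 over 65 pairs), 7 tested of 8 subunits of the chaperonin TRiC (0.03 over 95), 3 tested of 4 heat shock factors (0.01 over 34) and 5 other small heat shock proteins (0.00 over 23) had 0 pairs called for training, and also 0 for occlusion and for trained over occluded mice, beside the shares of all pairs given for the cytosolic list. For occlusion the medians of these lists, of the cytosolic chaperones and of the endoplasmic reticulum genes lay between −0.03 and 0.13. All medians are against 0.00 over all genes.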

How the data were processed

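Single-cell RNA of olfactory bulbs was measured in 6 libraries, 2 per group (control, naris occluded, trained). The authors captured cells with the Chromium 3′ v2 chemistry and, per the submitters' processing notes, used Cell Ranger 2.0.0, Seurat 2.2.1 and mm10. They deposited raw UMI counts per gene and barcode and, in an annotation, the fraction of mitochondrial UMIs, the library and the cluster of each cell. Their clustering removed doublets, and no further doublet filter was applied. The 1123 barcodes without a cluster were left out of the comparisons, as were 755 cells that the first annotation placed in a neuronal cluster and the second, finer annotation of neurons did not hold. Clusters keep the deposited names. Barcodes of the 2 trained libraries carry each other's prefix (TR1 for TR2), and the library field of the annotation was followed. By the prefixes, the shallow trained library would be the second, the pool of females. Fits and correlations that use the replicate number rest on this choice. A deposited table of normalized values was not used.

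Counts were summed per library over the cells of a cluster or population. Levels are CPM over all genes. Groups were compared with edgeR 4.0.16 (glmQLFit and glmQLFTest, TMM factors, filterByExpr) on all 6 libraries, with Benjamini-Hochberg adjustment over all genes of a population and a threshold of 0.05. A test of the difference of effects between all neurons and each of 4 nonneuronal classes used the same tool, and DESeq2 1.42.0 served as an alternative. The scripts were tested on simulated data. For shares of cells with a UMI, each cell was thinned to 500 UMIs. Promoters came from RefSeq tables of GRCm38.p6. Named genes are the 9 members, up to 4 genes of a list with the smallest adjusted p among those called, and the 3 genes most alike over clusters. Hsph1, which was not called, was named outside this rule after its values were seen. The members and lists were chosen with earlier results of these data known. Alternatives are described in the closing section. Intervals, floors and tests cover the spread between libraries and counting error only.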

Additional observations from a re-analysis of the deposited data

Results flagged for a closer look

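Several members differed in opposite directions between populations under the same comparison, with both libraries of a group on one side of both reference libraries in some populations and on the other side in others. These differences between populations were not tested, and across all pairs the share with such separation by itself is between 15.3% and 19.2% for each direction. For naris occlusion no pair of member and population passed the test, and 13.8% of the 94 pairs were separated upward and 19.1% downward, beside 19% and 15.3% of all pairs. For naris occlusion against control, Hspa5 was higher in 2 populations (n01, n07) and lower in 4 (n02, n03, mitral and tufted cells, endothelial cells), Hsp90aa1 higher in 1 (mesenchymal cells) and lower in 5, Dnaja1 higher in 3 and lower in 3, Hspb1 higher in 3 and lower in 1, Hsp90ab1 higher in 2 and lower in 1, and Hspa1a higher in 2 and lower in 1. For training against control, Hsp90ab1 was higher in 8 and lower in 1 (mitral and tufted cells), Hsp90aa1 higher in 3 and lower in 2, and Dnajb1 higher in 6 and lower in 1 (n03). Between trained and naris occluded mice, Hsp90ab1 and Hsp90aa1 were each higher in 6 and lower in 1 (mitral and tufted cells), Dnajb1 higher in 6 and lower in 1 (n03), and Hspb1 higher in 1 and lower in 1. Among all these populations, mural cells for Dnajb1 and Hspa1a and astrocytes for Hspb1 passed the filter only with the trained libraries. Immature neurons (n04) passed for Hspb1 only with the occluded libraries. They were 1 of the 3 higher for occlusion and the 1 lower between trained and occluded mice. For Dnajb1, n03 reached the cutoff only in both controls and the second occluded library, and it was the 1 lower in both comparisons of trained mice.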

How the results depend on the processing

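No called member changed sign under any alternative run, and DESeq2 size factors and plain library totals kept each of the 9 called values past the threshold. Library totals without TMM shifted the median of all genes by −0.09 to 0.16 on the log2 scale over populations and comparisons. Keeping only pairs that pass the filter without the trained libraries, chosen after seeing the data, left the member calls at 0, 2 and 6. The 0 member calls for occlusion held in every alternative except leaving out 1 library, which gave 0 to 1. Member calls of training against control (2) became 3 with DESeq2's Wald test, none of them the 2 called by edgeR, 5 with the largest cluster of each class, 4 without mitochondrial genes, 21 without the filter on low counts, 1 on the 4 libraries compared, and 0 to 29 leaving out 1 library (0 without trained replicate 1, 29 without trained replicate 2, 7 without naris occluded replicate 1 or 2, 6 without control replicate 2). In all neurons they became 1 with DESeq2's Wald test, 2 without the filter and 0 to 2 leaving out 1 library. Those of trained over occluded mice (6) became 1 with DESeq2's Wald test, 22 without the filter, and 1 to 35 leaving out 1 library (1 and 35 without trained replicate 1 and 2, 10 and 12 without control replicate 1 and 2), and in all neurons (1) 2 with DESeq2, 2 without the filter, 0 on the 4 libraries compared and 0 to 3 leaving out 1 library. The difference of training effects between neurons and other classes gave 0 to 6 calls leaving out 1 library.

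Calls over all genes for occlusion (63) became 19 with DESeq2, 37 in cells with at least 1000 UMIs, 226 without the filter and 70 to 136 leaving out 1 library. Those for training (56) became 37, 94 with the largest cluster of each class, 415 without the filter and 54 to 428, and those of trained over occluded mice (152) became 58 with DESeq2, 750 without the filter and 139 to 932. Libraries share a replicate number, which gives the sex of the pool, and the deviations of same-numbered libraries correlated between −0.03 and 0.26 over genes. With a replicate block the member calls became 0 for occlusion, 10 for training and 10 for trained over occluded mice. In the same order, those in all neurons became 0, 0 and 1, and calls over all genes 91, 129 and 306. The causes of these changes were not tested. The highest cluster of a gene was the same in 27 of 36 alternatives run, and for Dnajb1 it was macrophages with 107 CPM in the control libraries alone.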

Other observations

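The 1123 barcodes that carried no cluster held 28 UMIs of Hspa1a, or 9.27 CPM. This was near the lowest of the levels over annotated cells in the 6 libraries (9.61 to 30.0 CPM). Hspa5 was at 303 CPM there, within the range of the libraries (209 to 356 CPM), and Hspa8 at 665 CPM was near the lowest of them (654 CPM). Hspb1 had 15.2 CPM in these barcodes against 61.3 to 156 CPM over annotated cells. Hsp90aa1, Hsp90ab1 and Dnajb1 were also below the level in each of the 6 libraries, and Dnaja1 at 198 CPM was near the lowest of them (200 CPM). None of these differences was tested.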
